A study of Mus musculus with 6 samples.

Results

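The 3 DNA methyltransferases, the 3 TET dioxygenases and 4 genes of Polycomb repressive complex 2 (PRC2) were compared between CD4+Lrig1+ and CD4+Lrig1- T cells. The 10 genes (*Dnmt1*, *Dnmt3a*, *Dnmt3b*, *Tet1*, *Tet2*, *Tet3*, *Ezh1*, *Ezh2*, *Eed* and *Suz12*) were taken by symbol, for their known roles, from the 45777 genes listed, and all 10 were found. Bulk RNA sequencing had been performed on splenic T cells sorted from inbred C57BL/6 mice, all female and 7 weeks of age, with no treatment named. Both groups carry CD4, the co-receptor of helper T cells, and differ in surface Lrig1, a leucine-rich repeat protein, so each is a mixture of CD4+ T cell states. The data analysed are 2 libraries of each group, held in 2 tables of 1 CD4+Lrig1+ and 1 CD4+Lrig1- library each, called set 1 and set 2 here. Nothing states whether the libraries came from separate animals, so the spread behind the p-values may be technical. In the main test that spread is how far the group difference varied between the 2 sets.

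The enzymes write, erase and read out 2 repressive layers of chromatin. DNMT3A and DNMT3B place methyl groups on cytosines that precede a guanine (CpG sites), and DNMT1 copies the pattern to the new strand when DNA is replicated. TET1, TET2 and TET3 oxidize methylcytosine, which starts its removal. In PRC2, EZH2 or its paralog EZH1 methylates lysine 27 of histone H3, while EED and SUZ12 are the core subunits that make the enzyme active. In regulatory T (Treg) cells, which suppress other T cells, demethylated CpG sites at the *Foxp3* locus are known to keep the gene on, TET2 and TET3 are known to be needed for that state, and EZH2 is known to rise with activation.

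The substrate of the first 2 families is the CpG site, so the 250 bases before a RefSeq transcription start (GRCm38.p6) are shown for the 3 genes that differed most between the groups, each 5' to 3' on the gene's own strand, with every CpG in capitals. *Ezh2* is on the minus strand at chr6:47595031-47595280, *Tet1* on the minus strand at chr10:62887325-62887574, and *Tet3* on the minus strand at chr6:83441679-83441928.
Ezh2: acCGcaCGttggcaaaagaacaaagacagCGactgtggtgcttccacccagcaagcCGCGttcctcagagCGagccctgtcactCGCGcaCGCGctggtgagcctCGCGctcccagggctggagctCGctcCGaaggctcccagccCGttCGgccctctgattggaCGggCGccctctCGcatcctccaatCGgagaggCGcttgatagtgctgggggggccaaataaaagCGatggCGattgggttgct
Tet1: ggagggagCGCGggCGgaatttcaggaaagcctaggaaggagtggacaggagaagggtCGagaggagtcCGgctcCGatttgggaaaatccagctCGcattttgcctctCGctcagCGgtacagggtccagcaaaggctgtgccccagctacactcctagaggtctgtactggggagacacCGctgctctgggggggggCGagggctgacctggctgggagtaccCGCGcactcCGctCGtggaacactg
Tet3: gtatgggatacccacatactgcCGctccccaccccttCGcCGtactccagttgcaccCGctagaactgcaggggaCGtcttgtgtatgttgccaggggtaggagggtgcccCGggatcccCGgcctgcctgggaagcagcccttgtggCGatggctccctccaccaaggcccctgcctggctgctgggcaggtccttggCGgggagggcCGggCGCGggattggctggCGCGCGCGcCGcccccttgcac
In the GENCODE annotation of the same build, where some transcripts of each gene start further upstream, the *Ezh2* stretch held 125 exonic and 125 intronic bases of *Ezh2*. The *Tet1* stretch held 100 exonic and 150 intronic bases of *Tet1*. All 250 bases of the *Tet3* stretch were intronic in *Tet3*, and the annotated gene *B230319C09Rik* overlaps them. The capitals mark 23 CpG sites for *Ezh2*, 15 for *Tet1* and 17 for *Tet3*. Over the full window of 300 bases, which adds 50 bases after the start, *Ezh2* held 31 CpG sites, *Tet1* 17 and *Tet3* 22. The median over the 32851 windows of all genes was 7. Of all windows, 89.4% held fewer sites than that of *Ezh2*, 68.6% fewer than that of *Tet1* and 76.9% fewer than that of *Tet3*. The densest window of the 10 genes was that of *Tet2* with 57. The letters TTCCCGC or TTGGCGC, on either strand, which resemble sites bound by the E2F factors of cell cycle genes, were searched after the expression values had been seen. They occurred in 3 of the 14 windows of the 10 genes (*Ezh2*, *Suz12* and 1 of the 3 starts of *Dnmt1*) and in 6.81% of all windows. In *Ezh2* and *Dnmt1* they lie after the start, outside the stretch printed for *Ezh2*. Each of the letter strings contains a CpG, and these windows were dense in CpG sites, with 31 for *Ezh2*, 41 for *Suz12* and 33 for *Dnmt1*. The share over all windows was not matched for CpG sites, and binding of E2F factors was not tested. DNA methylation itself was not measured.

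*Ezh2* was 1.55-fold higher in CD4+Lrig1+ than in CD4+Lrig1- T cells and *Dnmt3a* 1.26-fold higher. *Tet1* was 2.65-fold lower, *Tet3* 1.58-fold lower, *Dnmt1* 1.23-fold lower and *Suz12* 1.21-fold lower. *Dnmt3b*, *Tet2*, *Ezh1* and *Eed* did not pass the test. These 6 calls, 2 higher and 4 lower, come from edgeR's quasi-likelihood test on estimated counts summed per gene, with the set as a term and a Benjamini-Hochberg adjusted p under 0.05 over all 16123 genes that passed a filter on low counts. All 10 genes passed that filter. When the code was tested on simulated counts, more of the calls were false than the nominal share, so adjusted p-values near 0.05 call for caution. The same test called 27.4% of all genes tested, 14.6% higher and 12.8% lower. The calls rest on the set as a term, which leaves 1 residual degree of freedom. The test draws each gene's spread toward that of other genes, with a prior of 6.21 degrees of freedom. A p-value with the term therefore does not rest on that gene's own libraries alone. Without the term the test called 0 of 16123 genes, with a smallest adjusted p of 0.501. In that fit 901 genes (5.59%) had an unadjusted p under 0.05. Of the 10 genes, 0 had an unadjusted p under 0.05 in that fit, and their smallest was 0.105, for *Ezh2*. For any gene taken alone, an exact permutation test that exchanges the group labels freely over these 4 libraries allows a smallest p of 0.333. Exchanging the labels only within a set, as the set term would ask, allows fewer arrangements and so a larger smallest p.

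**Figure D1:**
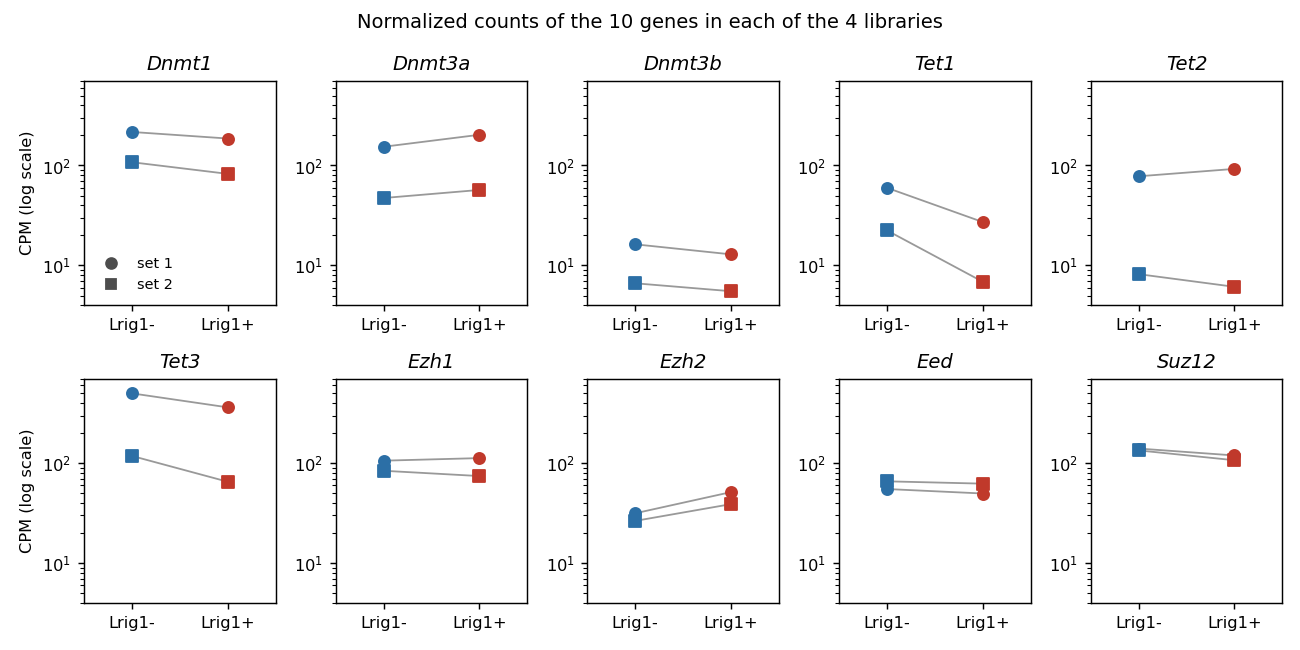
Library-size normalized counts (CPM, log scale) of the 10 genes in each library, with circles for set 1, squares for set 2 and a line joining the CD4+Lrig1- and CD4+Lrig1+ library of a set. The lines of *Ezh2* and *Dnmt3a* rise in both sets, those of *Tet1* and *Tet3* fall in both, and *Tet2* stands near 80 to 90 CPM in set 1 and under 10 in set 2.

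Facts of the libraries bear on every value. The estimated counts per library ranged from 44865070 to 59977951, and the 10 genes held 317 to 23938 each. *Lrig1* had 221 and 129 CPM (counts scaled to library size by the TMM method) in the CD4+Lrig1+ libraries of set 1 and set 2, and 75.4 and 36.7 CPM in the CD4+Lrig1- libraries. *Cd4* lay between 924 and 1100 CPM in all 4 libraries. All 10 genes of a Treg list (*Foxp3*, *Il2ra* and others) were higher in CD4+Lrig1+ T cells, and their median log2 fold change was 3.61. The 9 genes of a naive T cell list (*Lef1*, *Satb1* and others) were all lower, with a median of -0.92. *Foxp3* had 589 and 615 CPM in CD4+Lrig1+ T cells against 48.9 and 30.7. Genes of other cell types were also detected. The 10 B cell genes summed to 98.3 (CD4+Lrig1+) and 78.5 CPM (CD4+Lrig1-) in set 1, and to 391 and 775 CPM in set 2, with 0 called higher and 2 lower. The 11 myeloid genes summed to 46.0 to 270 CPM (1 higher, 4 lower), the 8 NK cell genes to 41.9 to 171 CPM (1 higher, 6 lower), the 2 CD8 genes to 14.1 to 97.3 CPM (2 lower), the 5 plasmacytoid dendritic cell genes to 48.3 to 134 CPM (4 lower) and the 5 plasma cell genes to 57.2 to 208 CPM (1 higher, 1 lower). The 6 erythroid genes summed to 9.27 to 96.1 CPM with 0 called. The part of these cells in the values below was not tested. In sorted bulk samples, fewer cells of a type and less RNA per cell cannot be told apart.

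Among the DNA methyltransferases, the maintenance enzyme and the de novo enzyme *Dnmt3a* moved in opposite directions. *Dnmt1* (GRCm38 chr9:20907206-20959888, gene ID 13433) had 186 CPM in the CD4+Lrig1+ and 217 CPM in the CD4+Lrig1- library of set 1, and 82.5 against 108 CPM in set 2. The CD4+Lrig1+ library was the lower one in each set, but the groups overlapped, since both libraries of set 1 lay above both of set 2. The log2 fold change of *Dnmt1* was -0.30 with a standard error of 0.08 (adjusted p = 0.0272), and the log2 ratio was -0.22 in set 1 and -0.39 in set 2.

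*Dnmt3a* (chr12:3801559-3914443, gene ID 13435) had 203 CPM in the CD4+Lrig1+ and 154 CPM in the CD4+Lrig1- library of set 1, and 56.9 against 47.3 CPM in set 2. It was higher in CD4+Lrig1+ T cells within each set, and again the sets were further apart than the groups. Its log2 fold change was 0.34 with a standard error of 0.07 (adjusted p = 0.0148), with log2 ratios of 0.40 and 0.27.

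*Dnmt3b* (chr2:153649411-153687730, gene ID 13436) had 12.9 against 16.3 CPM in set 1 and 5.52 against 6.63 CPM in set 2. Both log2 ratios were below 0, at -0.33 and -0.26, but with 317 to 779 estimated counts per library its log2 fold change of -0.30 had a standard error of 0.12 and did not pass the test (adjusted p = 0.113).

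*Tet1* and *Tet3* were lower in CD4+Lrig1+ T cells, and *Tet2* had no common direction. *Tet1* (chr10:62804570-62887469, gene ID 52463) had 27.2 CPM in the CD4+Lrig1+ and 59.9 CPM in the CD4+Lrig1- library of set 1, and 6.86 against 22.4 CPM in set 2. Within each set the CD4+Lrig1+ library was the lower by the widest margin of the 10 genes, with ratios of 0.454 in set 1 and 0.307 in set 2, although the CD4+Lrig1+ library of set 1 lay above the CD4+Lrig1- library of set 2. The log2 fold change of *Tet1* was -1.40 with a standard error of 0.14 (adjusted p = 4.57e-04).

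*Tet3* (chr6:83362373-83457208, gene ID 194388) had 362 against 499.9 CPM in set 1 and 65.2 against 118 CPM in set 2. It was lower in CD4+Lrig1+ T cells in each set, with log2 ratios of -0.47 and -0.86, and the levels of set 1 and set 2 did not overlap. Its log2 fold change was -0.66 with a standard error of 0.11 (adjusted p = 0.00429).

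*Tet2* (chr3:133463677-133545136, gene ID 214133) had 92.5 against 78.0 CPM in set 1 and 6.11 against 8.18 CPM in set 2. The CD4+Lrig1+ library was the higher in set 1 and the lower in set 2, with log2 ratios of 0.25 and -0.42, and the log2 fold change was -0.03 with a standard error of 0.15 (adjusted p = 0.903). Averaged over the groups, the *Tet2* level was 11.9-fold higher in set 1 than in set 2, the widest gap between sets among the 10 genes.

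Of the catalytic subunits of PRC2, *Ezh2* was higher in CD4+Lrig1+ T cells and *Ezh1* had no common direction. *Ezh2* (chr6:47530274-47595270, gene ID 14056) had 51.4 CPM in the CD4+Lrig1+ and 31.5 CPM in the CD4+Lrig1- library of set 1, and 39.0 against 26.5 CPM in set 2. The lower of its CD4+Lrig1+ values exceeded the higher of its CD4+Lrig1- values, a separation in that direction that 14.3% of all genes tested showed in CPM. The log2 fold change of *Ezh2* was 0.63 with a standard error of 0.09 (adjusted p = 0.00211), with log2 ratios of 0.70 and 0.56.

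*Ezh1* (chr11:101191115-101226463, gene ID 14055) had 112 against 106 CPM in set 1 and 74.3 against 84.0 CPM in set 2. Its log2 ratios were 0.09 and -0.18, and its log2 fold change was -0.04 with a standard error of 0.08 (adjusted p = 0.746). Per kilobase of transcript (FPKM, fragments per kilobase scaled to the mapped fragments of a library), *Ezh2* stood at 0.734 and 0.833 of *Ezh1* in the CD4+Lrig1+ libraries and at 0.473 and 0.49997 of it in the CD4+Lrig1- libraries. These ratios, computed after the values had been seen and without a test, did not overlap between the groups. *Ezh2* alone was already separated in FPKM, as were 16.3% of all genes tested in that direction. How often a ratio of 2 genes separates the groups was not computed.

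The non-catalytic core subunits did not follow *Ezh2*. *Suz12* (chr11:79993106-80034123, gene ID 52615) had 119 against 140.2 CPM in set 1 and 107 against 134 CPM in set 2. The groups did not overlap, with CD4+Lrig1+ T cells the lower, as for 11.8% of all genes tested in CPM, and its log2 fold change was -0.28 with a standard error of 0.07 (adjusted p = 0.0273). *Eed* (chr7:89954654-89980976, gene ID 13626), whose product reads the mark that PRC2 leaves, had 49.7 against 55.2 CPM in set 1 and 62.4 against 65.9 CPM in set 2. Its log2 fold change of -0.11 had a standard error of 0.08 and did not pass the test (adjusted p = 0.3202). *Eed* was the one gene of the 10 with a higher level in set 2 than in set 1.

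**Figure D2:**
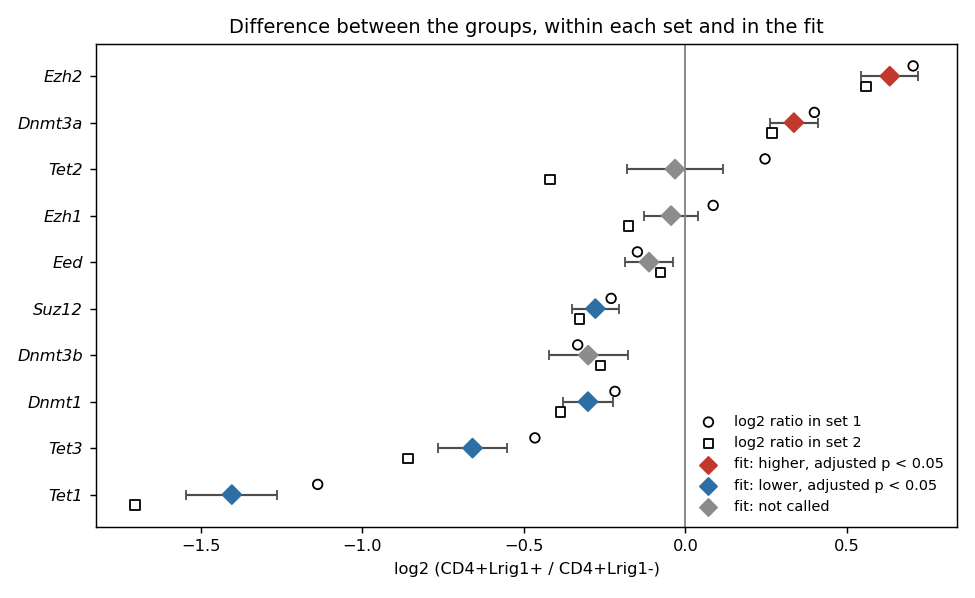
Difference between the groups for the 10 genes on a log2 scale, with open circles and squares for the ratio in set 1 and set 2, and diamonds with bars for the fitted log2 fold change and its standard error (red higher, blue lower, grey not called). The fitted values run from -1.40 for *Tet1* to 0.63 for *Ezh2*, and the circle and square lie on opposite sides of 0 for *Tet2* and *Ezh1*.

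The ratio had the same sign in both sets for 8 of the 10 genes, and for 77.2% of all genes tested. The median log2 fold change was -0.20 over the 10 genes and -0.04 over all genes tested, and the median size of the change, without its sign, was 0.30 and 0.28. Other tests with the set as a term gave other counts. The DESeq2 Wald test called 6 of the 10 genes and 23.6% of all genes. limma on log2(FPKM + 1) called 3 of the 10 (*Ezh2*, *Tet1* and *Tet3*) and 18.2% of all genes. The edgeR test without a filter on low counts called the same 3 genes and 9.24% of 22988 genes. *Dnmt1*, *Dnmt3a* and *Suz12* lost the call in both of these.

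Levels were compared between genes by FPKM, which divides by transcript length. That division is the same in both sets, so the gap between the sets that followed length, described below, remains in these orders and means. In the CD4+Lrig1+ library of set 1 the order ran from *Dnmt1* (33.3 FPKM) and *Tet3* (30.6 FPKM) through *Suz12*, *Ezh1*, *Eed*, *Dnmt3a*, *Ezh2* and *Tet2* to *Dnmt3b* (3.02 FPKM) and *Tet1* (2.08 FPKM). In the CD4+Lrig1- library of set 1, *Tet3* led with 42.3 FPKM and *Dnmt1* followed with 38.7 FPKM. In set 2 the order was another. *Eed* led with 27.4 FPKM in CD4+Lrig1+ and 26.97 FPKM in CD4+Lrig1- T cells, *Suz12* followed with 22.2 and 26.1 FPKM, and *Tet3* stood at 4.81 and 8.75 FPKM. *Tet1*, *Tet2* and *Dnmt3b* were the 3 lowest genes in all 4 libraries.

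By mean FPKM over both libraries, *Eed* (25.3 ± 2.93, SD, n = 2), *Suz12* (24.3 ± 2.97), *Dnmt1* (23.6 ± 13.8), *Ezh1* (20.8 ± 6.89), *Tet3* (17.7 ± 18.3), *Ezh2* (16.1 ± 3.94) and *Dnmt3a* (12.4 ± 10.05) led in CD4+Lrig1+ T cells. The libraries of each neighbouring pair in that order overlapped. In CD4+Lrig1- T cells the order was *Suz12* (28.5 ± 3.42), *Dnmt1* (27.8 ± 15.4), *Eed* (26.3 ± 0.88), *Tet3* (25.5 ± 23.7), *Ezh1* (20.5 ± 5.20), *Ezh2* (9.93 ± 2.14) and *Dnmt3a* (9.52 ± 7.63). The one neighbouring pair here without overlap was *Ezh1* and *Ezh2*. On the FPKM scale *Ezh2* was the one gene of the 10 whose groups did not overlap, a separation seen for 26.4% of all genes tested (16.3% higher and 10.1% lower), while *Suz12* had 26.4 and 22.2 FPKM against 30.9 and 26.1 FPKM. In TPM, which scales FPKM to the same total in every library and is an alternative added after seeing the data, 0 of the 10 genes were separated, against 22.9% of all genes (15.7% higher and 7.19% lower), and *Ezh2* had 49.0 and 22.5 TPM in CD4+Lrig1+ against 30.6 and 14.1 TPM in CD4+Lrig1- T cells.

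Within families, *Tet3* held 72.3% to 82.7% of the summed FPKM of the 3 TET genes in the 4 libraries. *Tet1* held 4.90% and 7.33% of it in the CD4+Lrig1+ libraries of set 1 and set 2, and 8.20% and 12.1% in the CD4+Lrig1- libraries. *Dnmt1* held 59.7% and 68.0% of the summed FPKM of the 3 DNA methyltransferase genes in CD4+Lrig1+ T cells, and 67.4% and 75.2% in CD4+Lrig1- T cells. *Dnmt3a* held 34.9% and 25.9% in CD4+Lrig1+ against 25.98% and 18.3% in CD4+Lrig1- T cells. Within each set, the share of *Dnmt3a* was the higher and the shares of *Dnmt1* and *Tet1* the lower in CD4+Lrig1+ T cells. Across the sets the groups overlapped in the shares of *Dnmt1* and *Dnmt3a* and did not overlap in that of *Tet1*. The shares were not tested, and how often such a share separates the groups over all genes was not computed. The level of *Tet1* itself overlapped between the groups in CPM, FPKM and TPM.

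The sets differed more than the groups for most of the 10 genes, and the gap followed transcript length. The median size of the log2 difference between sets was 1.17 over the 10 genes and 0.73 over all genes tested. Over all genes tested, the median log2 ratio of set 1 over set 2 was -0.91 for the 2306 genes whose annotated transcripts had a median length of up to 1000 bases, -0.10 for 3373 genes of 2000 to 3000 bases and 1.45 for 762 genes over 8000 bases. *Dnmt3a* (1.77), *Tet1* (1.69), *Tet2* (3.57) and *Tet3* (2.28 in log2, 4.84-fold) belong to the longest class, and *Eed*, with a transcript of 2060 bases, was at -0.29. The ratio between the groups also leaned with length, by less. Among genes over 8000 bases, the median of the log2 group ratio (CD4+Lrig1+ to CD4+Lrig1-) was -0.09 in set 1 and -0.20 in set 2, and 23.2% of them were called lower and 16.4% higher. The log2 ratios of *Tet1* (-1.14 and -1.70) and *Tet3* (-0.47 and -0.86) lay below those medians in both sets, and those of *Dnmt3a* lay above them. The part of transcript length in the calls was not tested.

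**Figure D3:**
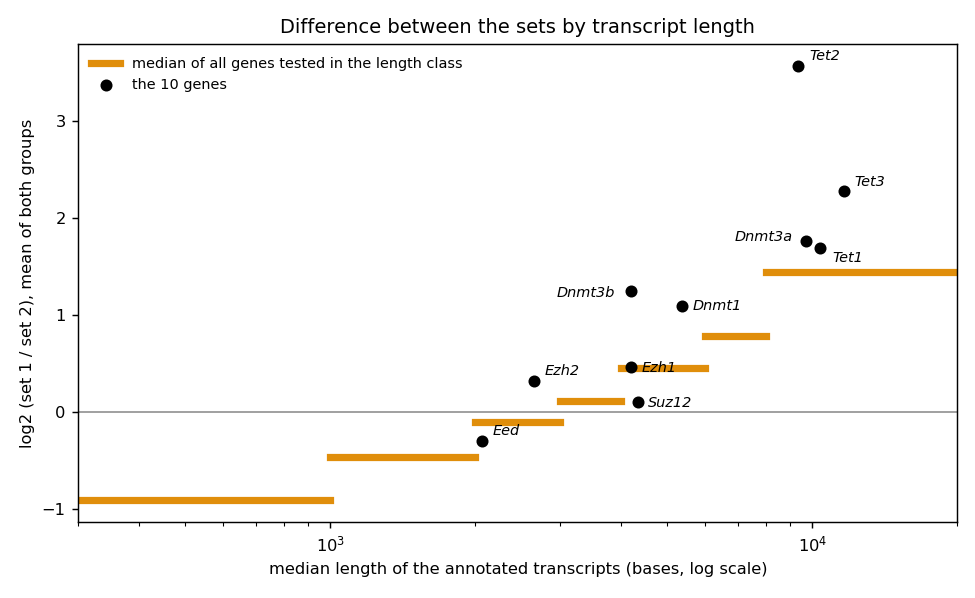
Difference between the sets (log2 of set 1 over set 2, mean of both groups) against the median length of a gene's annotated transcripts in bases, on a log axis, with black points for the 10 genes and orange bars for the median of all genes tested in a length class. The bars climb from -0.91 to 1.45, and *Tet2* at 3.57 stands furthest above its class.

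The deposited tables divide the counts of 9 of the 10 genes among several RefSeq transcripts. The transcript with the most counts was the same in all 4 libraries for 3 of them (*Tet1*, *Ezh1* and *Suz12*) and was not for the other 6. In the CD4+Lrig1+ library of set 2, all counts of *Dnmt3a*, *Tet1* and *Tet3* were placed on 1 transcript each, while the CD4+Lrig1+ library of set 1 spread them over 10, 5 and 7. The short *Dnmt3a* transcript that starts inside the gene (variant 2) took 2.62% and 1.22% of the gene's counts in the CD4+Lrig1+ and CD4+Lrig1- library of set 1, and 0% and 11.9% in set 2. The 3 *Tet1* transcripts that start downstream of the main start took 43.7% and 37.0% in set 1, and 0% and 1.16% in set 2. A *Dnmt1* transcript (variant 5) of 5391 bases took 3.97% and 0% of the gene's counts in the CD4+Lrig1+ libraries of set 1 and set 2, and 30.2% and 27.004% in the CD4+Lrig1- libraries. It was named after its values were seen, and variant 1, of 5370 bases, starts and ends at the same positions. Variant 1 went the other way, with 57.7% and 40.2% in the CD4+Lrig1+ and 22.1% and 24.8% in the CD4+Lrig1- libraries. How often such shares separate the groups over all transcripts was not computed. These shares are estimates of how reads common to several transcripts were divided, and they were not tested between the groups.

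Partners of the 10 genes were described by lists of 66 genes, of which 63 could be tested. Of these 11 were higher and 9 were lower in CD4+Lrig1+ T cells and 43 did not pass the test, 31.7% called against 27.4% of all genes tested. Their median log2 fold change was -0.06. Without the set as a term, 0 of the 63 were called.

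Of the partners of DNA methylation, 2 of the 5 tested were higher and 1 was lower. *Uhrf1*, which brings DNMT1 to replicated DNA, had 25.4 against 7.52 CPM in set 1 and 21.9 against 10.7 CPM in set 2. Its log2 fold change was 1.39 with a standard error of 0.17 (adjusted p = 0.00119), while *Dnmt1* itself was lower. *Hells*, a chromatin remodeler needed for DNA methylation, rose by 0.74 on the log2 scale (adjusted p = 0.00441). *Usp7*, a deubiquitinase that binds DNMT1 and UHRF1, had a log2 fold change of -0.37 (adjusted p = 0.0114). *Dnmt3l* and *Zfp57* did not pass the filter on low counts. Of the 10 methyl-CpG readers and repair genes, 1 was higher (*Mbd1*, log2 fold change 0.23, adjusted p = 0.0426) and 0 were lower. *Tdg*, the glycosylase that removes the bases TET enzymes oxidize, was at -0.05 (adjusted p = 0.723).

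Of 9 tested genes that support TET activity, 3 were higher and 1 was lower. *Gadd45b* and *Gadd45g*, stress-response genes linked to DNA demethylation, had log2 fold changes of 1.64 (adjusted p = 4.49e-05) and 1.73 (adjusted p = 6.66e-04). *Gadd45b* had 40.0 against 13.3 CPM in set 1 and 32.5 against 10.1 CPM in set 2. *Cxxc5*, a CpG-binding protein, was at 0.66 (adjusted p = 0.0282). *Idh2*, the mitochondrial enzyme that makes the 2-oxoglutarate TET enzymes consume, was lower at -0.79 (adjusted p = 7.71e-04), with 33.4 against 53.0 CPM in set 1 and 43.8 against 81.9 CPM in set 2. None of the 3 genes that rose is an enzyme that makes or removes a cofactor of TET.

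Of 9 PRC2 cofactors, 0 were higher and 2 were lower, *Lcor* at -0.49 (adjusted p = 0.00461) and *Phf1*, a subunit that reads histone H3, at -0.25 (adjusted p = 0.0424). *Jarid2*, which guides PRC2 to chromatin, was at -0.02 (adjusted p = 0.922). Of 23 genes of Polycomb repressive complex 1 (PRC1), which ubiquitinates histone H2A, 4 were higher and 4 were lower. The chromodomain genes *Cbx6* (1.01, adjusted p = 1.85e-04) and *Cbx7* (0.43, adjusted p = 0.00407), *Kdm2b* (0.98, adjusted p = 1.41e-04), which binds unmethylated CpG sites, and *Pcgf2* (1.17, adjusted p = 0.00429) were higher on the log2 scale. Those lower included *Rybp* (-0.45, adjusted p = 0.0103), *Pcgf5* (-0.33, adjusted p = 0.0205) and *Pcgf3* (-0.33, adjusted p = 0.0339). The catalytic PRC1 genes *Ring1* (-0.06) and *Rnf2* (-0.03) did not pass the test.

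Of the enzymes that remove Polycomb marks, the H3K27 demethylases *Kdm6a* (-0.15, adjusted p = 0.248) and *Kdm6b* (-0.06, adjusted p = 0.609) did not pass the test. Among 5 genes of the H2A deubiquitinase complex PR-DUB, *Asxl1* was higher (0.35, adjusted p = 0.0118), *Foxk1* was lower (-0.59, adjusted p = 0.00243) and the catalytic *Bap1* was at -0.06 (adjusted p = 0.614).

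Cell cycle genes moved in the direction of *Ezh2*, *Uhrf1* and *Hells*. Of a list of 20, 15 were higher, 0 were lower and 5 did not pass the test, with a median log2 fold change of 0.99. *Mki67*, a marker of dividing cells, had 48.8 against 14.3 CPM in set 1 and 7.30 against 3.20 CPM in set 2 (log2 fold change 1.52, adjusted p = 4.40e-04). *Pcna* (-0.02, adjusted p = 0.863) and *E2f1* (0.46, adjusted p = 0.166) did not pass the test. The list summed to 790 and 992 CPM in the CD4+Lrig1+ libraries of set 1 and set 2 and to 546 and 803 CPM in the CD4+Lrig1- libraries. *Ezh2*, *Uhrf1* and *Hells* are known to be made mostly by dividing cells. *Dnmt1* was lower in CD4+Lrig1+ T cells, at -0.30 on the log2 scale. The part of dividing cells in these differences, that of *Dnmt1* included, was not tested.

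**Figure D4:**
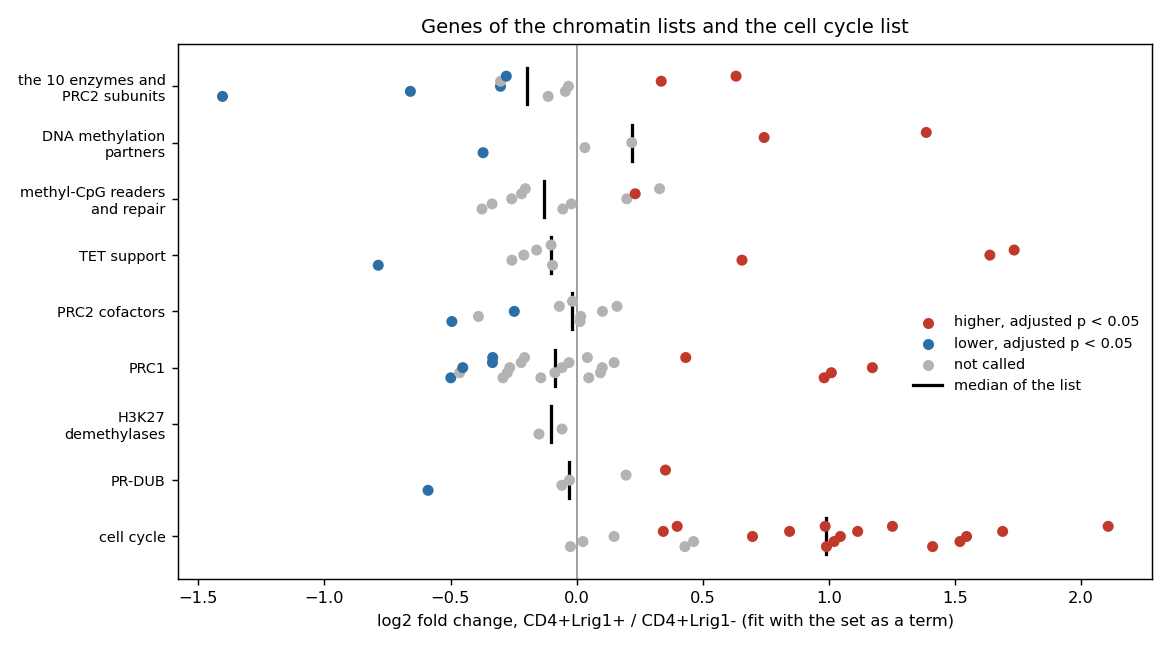
Log2 fold change of CD4+Lrig1+ over CD4+Lrig1- T cells for each tested gene of the 10, of 7 chromatin lists and of the cell cycle list, with red for higher, blue for lower, grey for not called and a black bar at each list's median. The cell cycle list has its median at 0.99, with 15 red points and 0 blue ones, while the chromatin lists hold red and blue points around medians from -0.13 to 0.22.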

How the data were processed

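Total RNA of the sorted cells was made into stranded mRNA libraries. According to the methods and the submitters' processing notes, the authors trimmed the paired-end reads with Trimmomatic 0.38, mapped them with HISAT2 2.1.0 and assembled them with StringTie 2.1.3b (Bowtie2 2.3.4.1 is also listed), on GRCm38. The deposited tables give each RefSeq transcript an estimated count, an FPKM value and a TPM value, made by the authors. The estimated counts are whole numbers, and a division of reads among transcripts lies behind them. The labels list 3 samples per group. Another table was not used here, since the names of its 6 columns of per-sample values do not give the group.

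Counts, FPKM and TPM were summed per gene symbol with Python 3.11.15. In R 4.3.3, edgeR 4.0.16 was used with filterByExpr, TMM scaling and the quasi-likelihood test, and the standard error was taken from the test statistic. For the log2 ratio of a set, 2 was added as the prior count. Alternatives used DESeq2 1.42.0 and limma 3.58.1, another filter, log2(FPKM + pseudocount) with pseudocounts of 1 and 0.1, a scale on which the change of low genes is understated, other thresholds and libraries left out in turn. The code was tested on simulated counts, where more of the calls were false than the nominal share. Named genes are the 10, up to 4 called genes per list and direction with the same sign in both sets, and *Lrig1*, *Foxp3*, *Il2ra* and *Mki67*. *Cd4*, *Lef1*, *Satb1*, *Tdg*, *Jarid2*, *Ring1*, *Rnf2*, *Kdm6a*, *Kdm6b*, *Bap1*, *Pcna*, *E2f1*, *Dnmt3l* and *Zfp57* were named after their values were seen. Some genes that the rule would name are not reported here. The 10 genes, the lists and the set term were chosen with earlier results of these data known.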

Additional observations from a re-analysis of the deposited data

How the results depend on the processing

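Without the set as a term, edgeR called 0 genes higher and 0 lower over all genes, 0 and 0 of the 10 and 0 and 0 of the listed partners. With the term, the counts were 2358 higher and 2056 lower. Without a filter on low counts they were 1304 and 820 (1 and 2 of the 10 genes), with limma on log2(FPKM + 1) the lower genes were 1016 (1 higher and 2 lower of the 10), and with a change of at least 2-fold also required they were 1164 and 491 (0 and 1 of the 10). Leaving out each library in turn without the term, where the lone library of a group is assumed to vary like the other group, gave 1 to 88 higher and 0 to 2 lower genes, and 0 of the 10 in each direction. With the term, leaving out a library gives the other set's value with no test.

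Over 8 alternatives of scaling, filter, test and unit, *Ezh2*, *Tet1* and *Tet3* kept direction and call in 7 and lost the call without the term, and *Dnmt1*, *Dnmt3a* and *Suz12* lost it in 3. *Tet2* turned to 0.19 without the term, 0.11 with limma voom and 0.053 with log2(FPKM + 1), and *Ezh1* turned to 0.0053 and 0.0048 with pseudocounts of 1 and 0.1. With libraries left out and no term, the log2 fold change ranged from -0.96 to 0.35 for *Dnmt1*, -0.81 to 1.49 for *Dnmt3a*, -1.04 to 0.51 for *Dnmt3b*, -2.82 to 2.62 for *Tet2*, -2.24 to 0.88 for *Tet3*, -0.33 to 0.24 for *Ezh1* and -0.29 to 0.078 for *Eed*. Such a fit compares unequal numbers of libraries from each set. *Tet1* (-2.57 to -0.37), *Ezh2* (0.45 to 0.82) and *Suz12* (-0.33 to -0.20) kept their direction. The 10 genes separated between groups were 1 in FPKM, 2 in CPM and 0 in TPM. The set as a term pairs the libraries of a table. By the replicate numbers of the labels, no paired analysis was possible because the columns carry none.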
